A study of Mus musculus with 6 samples.

Results

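The Clec genes name a family of C-type lectin receptors and secreted lectins, and their RNA was compared here between wild-type lung and lung of mice with a transgene for Scnn1b. The members are all genes whose platform symbol starts with Clec followed by a digit and that have a probe set with exactly 1 symbol. This rule gave 33 genes of the 19935 genes measured. Of these 25 lie on chromosome 6. All but Clec4g had 1 such probe set, and for Clec4g the brighter of the available probe sets was taken.

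Many C-type lectin receptors read sugars or other patterns on microbes, on dead cells or on neighbouring cells. The activating receptors of myeloid cells work through the kinase Syk and the adaptor Card9, either by a tyrosine motif in their own tail or by pairing with Fcer1g or Tyrobp, while the inhibitory receptors recruit phosphatases such as Ptpn6. In lung such receptors are known from alveolar macrophages, dendritic cells and neutrophils, while other members of the family belong to endothelium, platelets, lymphocytes or the extracellular matrix.

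The 6 arrays held RNA from lung of C57BL/6 mice, 3 arrays of wild type and 3 arrays of Scnn1b-transgenic mice (Scnn1b-Tg). The product of Scnn1b is a subunit of the sodium channel of airway epithelium, and the stated purpose of the series was a search for genes of emphysema. The labels name neither the promoter of the transgene nor the age or sex of the mice, and in the widely used line of this name the promoter of the club cell secretory protein drives the transgene in the airways. Whether the 3 samples of a genotype were separate animals is not stated, and if they were not the p-values reflect only technical spread. In whole lung, fewer cells of a type and less RNA per cell cannot be told apart.

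Scnn1b checked the labels, with intensities of 108.3 to 172.1 on the wild-type arrays and of 1333 to 1527 on the Scnn1b-Tg arrays (log2 fold change 3.37 ± 0.16, SE; adjusted p = 0.00241, limma). Of the 12 genes listed as lung markers, Sftpc of alveolar type 2 cells had mean intensities of 7948 and 7973 in wild type and Scnn1b-Tg, whereas Alb of liver had 31.97 and 34.3. Among the 12 lung markers 6 were higher and 6 lower in Scnn1b-Tg. The smallest p in limma was that of Scgb1a1, at 3948 to 4579 in wild type and 3379 to 3660 in Scnn1b-Tg, without overlap. Its log2 fold change was -0.31 ± 0.07 (SE; adjusted p = 0.398 in limma), and Scgb3a2 gave -0.29 ± 0.17 with overlap. Wild type replicate 2 stood apart on the first principal component of all genes (34.0% of the variance) at 16.3, with the other arrays between -8.91 and 5.46. Scnn1b-Tg replicate 3 stood apart on the second (22.6%) at 13.3, with the others between -8.03 and 2.47. For the genes with the largest differences, and for others where an array moved a value most, the value without these arrays is given as well. The median intensity was 47.6 to 48.5 and the lowest 18.3 to 18.6, depending on the array.

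Among the Clec genes, Clec7a and Clec12a had the highest ratios of Scnn1b-Tg to wild type, at 1.40-fold and 1.34-fold, and Clec2d had the lowest, being 1.35-fold higher in wild type. Smaller differences were measured for Clec4n (1.17-fold higher), Clec4a2 (1.16-fold) and Clec4a3 (1.11-fold). None of the 33 genes passed the threshold of an adjusted p under 0.05 in limma with adjustment over all genes, where 0.00502% of genes passed in either direction and that gene was Scnn1b itself. The smallest adjusted p of a member was 0.528, for Clec2d. At an unadjusted p under 0.05 in limma there were 6 members, 5 higher and 1 lower in Scnn1b-Tg, or 18.2% of the family beside 6.01% of all genes (3.96% higher and 2.05% lower).

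The arrays of the genotypes did not overlap for 8 members, which is 24.2% of the family beside 10.7% of all genes. Of these, 5 were higher in Scnn1b-Tg (15.2% beside 6.26% of all genes) and 3 lower (9.09% beside 4.41%). After median centring the members without overlap were 3 higher and 4 lower (3.81% and 7.96% of all genes), so the balance of directions depends on the scaling. As deposited, the higher genes were Clec4a2, Clec4a3, Clec4b1, Clec4n and Clec7a, and the lower ones Clec2d, Clec2g and Clec4f. With wild type replicate 2 and Scnn1b-Tg replicate 3 both left out 6 members had an unadjusted p under 0.05 in limma (18.2% beside 7.13% of all genes). In that fit 14 members had no overlap, or 42.4% beside 35.8% of all genes with these fewer arrays. The median log2 fold change of the family was 0.013, beside 0.0052 over all genes tested, and 18 members lay above 0 and 15 below. The family's middle range of log2 fold changes ran from -0.07 to 0.08 (quartiles), beside -0.04 to 0.06 for all genes. After quantile normalization or median centring 15 members lay above 0 and 18 below. Of all genes 53.2% lay above 0 as deposited and 38.6% after median centring. Many members were dim: 19 belonged to the dimmest 6645 of all genes, and 4 (Clec2m, Clec4a4, Clec4b1 and Clec4b2) had a mean intensity under 25. The lowest intensities of the arrays lie well above 0, and whether a constant was added to the deposited values is not stated, so log2 fold changes of dim members may be understated.

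**Figure D1:**
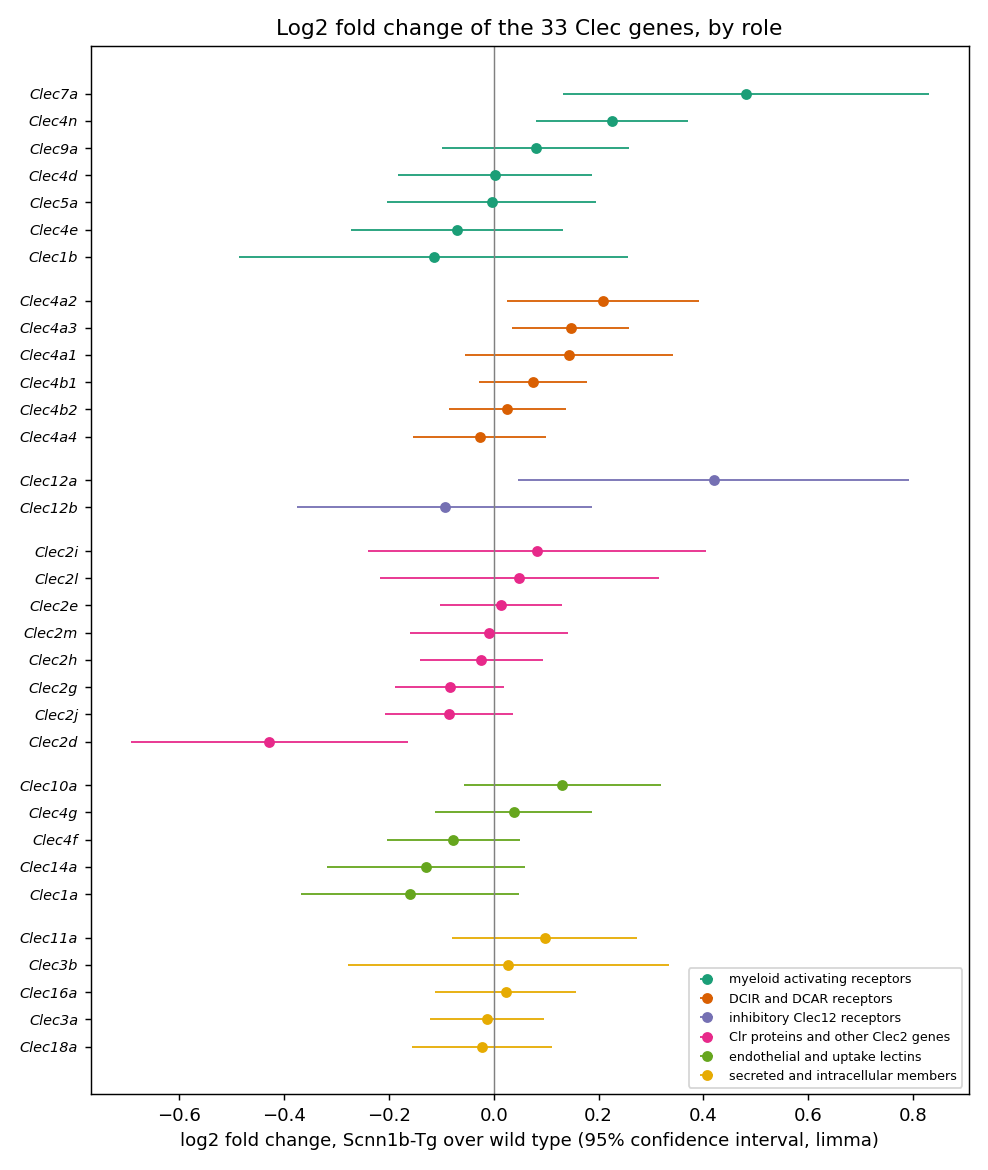
Log2 fold change (x axis, Scnn1b-Tg over wild type) of each of the 33 Clec genes (y axis), grouped by role, with points for the limma estimate and bars for its 95% confidence interval (n = 3 arrays a genotype). The intervals of Clec7a, Clec4n, Clec4a2, Clec4a3 and Clec12a lie above 0 and that of Clec2d below 0, before any adjustment for the number of genes.

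Clec7a encodes dectin-1, the myeloid receptor for β-glucans of fungal cell walls, which signals through a tyrosine motif in its own tail to Syk. Its intensities were 120.9, 118.3 and 113.0 on the wild-type arrays and 190.2, 182.3 and 126.7 on the Scnn1b-Tg arrays. All 3 Scnn1b-Tg arrays lay above the wild-type arrays, with Scnn1b-Tg replicate 3 only just above them and replicates 1 and 2 far above. The means were 117.4 ± 4.03 (SD, n = 3) and 166.4 ± 34.6, and the log2 fold change was 0.48 ± 0.15 (SE; 95% confidence interval 0.13 to 0.83; adjusted p = 0.694 in limma). A larger absolute log2 fold change was measured for 0.386% of all genes. Without Scnn1b-Tg replicate 3 the log2 fold change of Clec7a was 0.67 with an adjusted p of 0.0518, without wild type replicate 2 as well it was 0.67 with an adjusted p of 0.161, and without Scnn1b-Tg replicate 1 it was 0.37. After quantile normalization the genotypes overlapped for Clec7a.

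Clec12a, the inhibitory receptor MICL of myeloid cells that binds uric acid crystals, lies in the same row of Clec genes on chromosome 6 as Clec7a, with 4 other Clec genes between them. It had intensities of 46.94, 36.84 and 42.48 in wild type and of 70.22, 53.99 and 46.37 in Scnn1b-Tg. Here too Scnn1b-Tg replicate 3 was the lowest of its group, and it lay below the highest wild-type array, so the genotypes overlapped. The log2 fold change was 0.42 ± 0.16 (SE; 95% confidence interval 0.05 to 0.79; adjusted p = 0.764 in limma). It was 0.56 without Scnn1b-Tg replicate 3, 0.33 without wild type replicate 2, 0.46 without both and 0.26 without Scnn1b-Tg replicate 1. Clec12b, another inhibitory receptor, gave -0.09 ± 0.12 and its sign turned to 0.02 without Scnn1b-Tg replicate 3.

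The bases upstream of Clec7a and Clec12a, of the same row of genes, are shown because these genes have the 2 highest ratios. Clec2d is shown for the lowest ratio. Clec4a2 is shown as a further member with an unadjusted p under 0.05 in limma. Clec4a3 and Clec4n are such members too, but the Clec4a3 window is not shown and Clec4n had no promoter entry. The sequences are from RefSeq (GRCm38.p6), each the 250 bases before the annotated start, 5′ to 3′ on the strand of the gene. Capitals mark matches, on either strand, to GAGGAA (a core read by the myeloid factor PU.1 and other ETS factors), TTC and GAA spaced by 4 bases (STAT6-type), TTGCNNAA (C/EBP-type), TGANTCA (AP-1-type) or TATAAA (as in a TATA box).
Clec7a (chr6:129472780-129473029, minus strand): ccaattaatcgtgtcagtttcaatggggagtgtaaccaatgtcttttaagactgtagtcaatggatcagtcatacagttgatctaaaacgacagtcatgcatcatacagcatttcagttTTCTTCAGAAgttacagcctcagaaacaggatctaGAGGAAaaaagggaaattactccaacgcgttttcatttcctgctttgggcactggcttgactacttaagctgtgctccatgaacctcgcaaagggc
Clec12a (chr6:129349994-129350243, plus strand): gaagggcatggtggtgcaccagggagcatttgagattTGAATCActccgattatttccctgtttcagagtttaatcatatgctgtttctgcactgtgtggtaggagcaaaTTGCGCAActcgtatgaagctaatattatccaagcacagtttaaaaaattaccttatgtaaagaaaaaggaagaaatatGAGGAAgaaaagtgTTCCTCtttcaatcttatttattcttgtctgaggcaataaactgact
Clec4a2 (chr6:123122440-123122689, plus strand): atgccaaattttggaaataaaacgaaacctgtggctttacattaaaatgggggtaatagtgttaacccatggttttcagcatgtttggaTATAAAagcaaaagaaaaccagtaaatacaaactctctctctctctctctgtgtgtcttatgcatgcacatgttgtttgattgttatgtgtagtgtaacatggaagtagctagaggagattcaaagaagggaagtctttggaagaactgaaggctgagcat
Clec2d (chr6:129180365-129180614, plus strand): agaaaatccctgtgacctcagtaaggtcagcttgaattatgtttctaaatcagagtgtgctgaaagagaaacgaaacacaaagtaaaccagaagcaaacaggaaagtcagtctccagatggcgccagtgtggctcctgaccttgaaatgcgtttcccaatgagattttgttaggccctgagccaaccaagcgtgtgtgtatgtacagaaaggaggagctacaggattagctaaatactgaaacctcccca
In the Clec7a window GAGGAA began 96 bases and the STAT6-type letters 131 bases before the start. The Clec12a window held GAGGAA on each strand, 61 and 47 bases before the start, besides a C/EBP-type match at 140 and an AP-1-type match at 213 bases. The Clec4a2 window held the TATA box letters alone, and the windows of Clec2d and Clec4a3 held none of these letters. No matches overlapped in these windows. GAGGAA was found in 13 of the 26 members with an entry and in 23.1% of 27025 promoters of the same length, one for each gene. The share of all promoters was 5.86% for the STAT6-type letters (4 members), 9.55% for the C/EBP-type (4), 6.87% for the AP-1-type (5) and 13.0% for the TATA box (7). These are matches of letters only.

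Clec4n, Clec4d and Clec4e encode dectin-2, MCL and Mincle, which pair with the Fc receptor γ chain Fcer1g and read fungal mannans and mycobacterial glycolipids. Clec4n had intensities of 75.01, 78.78 and 81.53 in wild type and of 85.96, 91.95 and 97.5 in Scnn1b-Tg, without overlap. The log2 fold change was 0.23 ± 0.06 (SE; 95% confidence interval 0.08 to 0.37; adjusted p = 0.559 in limma), and it stayed between 0.18 and 0.27 over single arrays left out. In contrast to Clec7a, Scnn1b-Tg replicate 3 was the highest array for Clec4n. Clec4d (0.0022 ± 0.08) and Clec4e (-0.07 ± 0.09) lay near 0 with intervals from -0.18 to 0.19 and from -0.27 to 0.13, at mean intensities of 25.5 to 34.2 in either genotype.

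For the remaining activating receptors the difference between genotypes was within the spread of the arrays. Clec5a, which pairs with Tyrobp, had a log2 fold change of -0.0038 ± 0.08 (SE), and Clec9a, the receptor of cross-presenting dendritic cells for actin of dead cells, 0.08 ± 0.08. Clec1b, the platelet receptor for podoplanin, gave -0.11 ± 0.16, with its highest array in wild type (replicate 3, 65.72) and the others between 42.94 and 54.58. Without that array the sign of Clec1b turned, to 0.06. The platelet markers, 10 measured, had summed intensities of 722.7 to 1439 in wild type and of 928.6 to 1290 in Scnn1b-Tg, and 7 of them were higher in Scnn1b-Tg. For Clec9a, the markers Xcr1 (0.08 ± 0.06) and Batf3 (0.24 ± 0.07) of the same dendritic cells can be set beside it.

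**Figure D2:**
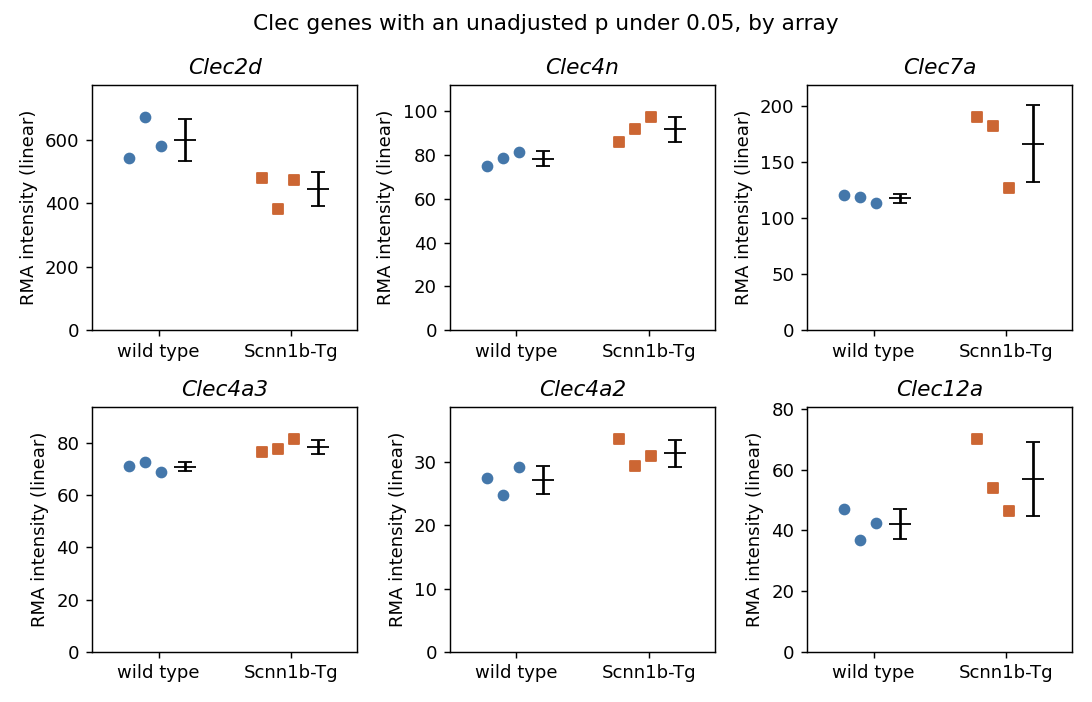
RMA intensity (y axis, linear from 0) on each array of the 6 Clec genes with an unadjusted p under 0.05, with wild type as circles, Scnn1b-Tg as squares, and the mean with SD of 3 arrays as a black bar. The genotypes do not overlap for any of these genes but Clec12a, and for Clec7a the lowest Scnn1b-Tg array (126.7) is close to the highest wild-type array (120.9).

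The DCIR and DCAR receptors, dendritic cell immunoreceptors and immunoactivating receptors, are coded by Clec4a1 to Clec4a4, Clec4b1 and Clec4b2. Of these 6 genes 5 had a positive log2 fold change (beside 53.2% of all genes), with a median of 0.11. No overlap between genotypes was found for 3, all higher in Scnn1b-Tg, beside 6.26% of all genes in that direction. After median centring Clec4a3 alone of them had no overlap. Clec4a2 encodes DCIR, whose tail carries an inhibitory tyrosine motif. It had intensities of 27.55, 24.82 and 29.2 in wild type and of 33.73, 29.46 and 31.0 in Scnn1b-Tg. Its log2 fold change was 0.21 ± 0.08 (SE; 95% confidence interval 0.02 to 0.39; adjusted p = 0.764 in limma). The lowest Scnn1b-Tg array lay just above the highest wild-type array. Clec4a2 is dim, and with 16 subtracted from every intensity its log2 fold change was 0.47.

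Clec4a3, the gene of DCIR3, had 71.36, 72.63 and 69.04 in wild type and 76.5, 77.67 and 81.72 in Scnn1b-Tg. The groups were separate and the arrays within each lay close together, and the log2 fold change was 0.15 ± 0.05 (SE; 95% confidence interval 0.04 to 0.26; adjusted p = 0.719 in limma). Clec4b1, the gene of the activating DCAR, was separate as well but near the lowest intensities of the arrays, at 20.81, 20.4 and 20.92 against 21.58, 22.58 and 21.3 (log2 fold change 0.08 ± 0.04, and 0.30 with 16 subtracted). Clec4a1 gave 0.14 ± 0.08 with overlap and 0.03 without wild type replicate 2 and Scnn1b-Tg replicate 3, and Clec4b2 and Clec4a4 gave 0.03 ± 0.05 and -0.03 ± 0.05 at mean intensities of 20.6 to 24.4.

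By position, these 6 genes and Clec4n, Clec4d and Clec4e are direct neighbours on chromosome 6, with 0 other protein-coding genes between them in RefSeq. In this row of 9 genes 7 had a positive log2 fold change (beside 53.2% of all genes), and the median was 0.08. Separate and higher were 4 (beside 6.26% of all genes), and 0 were separate and lower. After median centring Clec4a3 and Clec4n of this row stayed separate. A further row on chromosome 6, from Clec2m to Clec7a, also holds no other coding gene and mixes directions. It holds Clec7a, Clec12a and Clec9a with positive values and Clec1a, Clec1b, Clec12b and Clec2m with negative ones, for a median of -0.0088 over 7 genes. The Clec4a and Clec4b genes are close copies of each other, as are the Clec2 genes, and RefSeq places Clec1b and Clec9a within the span of Clec12b, so probes may read more than 1 of these genes, which cannot be tested with these values.

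Clec2d encodes Clr-b, a protein displayed on many normal cells as the ligand of the inhibitory receptor NKR-P1B of natural killer cells, the product of Klrb1b. Its intensities were 543.3, 673.0 and 580.3 in wild type and 479.7, 383.5 and 473.7 in Scnn1b-Tg. All Scnn1b-Tg arrays lay below all wild-type arrays, with replicate 2 the lowest in Scnn1b-Tg and replicate 2 the highest in wild type. The means were 598.9 ± 66.8 (SD, n = 3) and 445.6 ± 53.9, and the log2 fold change was -0.43 ± 0.11 (SE; 95% confidence interval -0.69 to -0.16; adjusted p = 0.528 in limma). Over single arrays left out the log2 fold change of Clec2d lay between -0.50 and -0.32, and without wild type replicate 2 and Scnn1b-Tg replicate 3 together it was -0.39. A larger absolute log2 fold change was measured for 0.562% of all genes.

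The other Clec2 genes lay close to 0. Clec2g, a Clr gene as well, had 29.68, 31.65 and 31.07 in wild type and 29.21, 28.88 and 29.04 in Scnn1b-Tg, without overlap and with a log2 fold change of -0.08 ± 0.04 (SE). This small difference kept its sign in every alternative run and was -0.18 with 16 subtracted. Clec2i, the gene of Clr-g, gave 0.08 ± 0.14 with a wide interval from -0.24 to 0.41, and Clec2e, Clec2h, Clec2l and Clec2m, together with the pseudogene Clec2j, lay between -0.09 and 0.05. Of the row of Clec2 genes on chromosome 6, which RefSeq shows interspersed with the Klrb1 genes of their receptors, 4 of 6 had negative values. Among the receptor genes, Klrb1b gave 0.02 ± 0.07, and Klrb1f, separate at 24.81 to 25.8 in wild type and 26.6 to 27.06 in Scnn1b-Tg, gave 0.09 ± 0.04 at an adjusted p of 0.834 in limma.

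Beside Clec2d, markers of lymphocytes were measured. Of 17 natural killer and T cell markers 9 were higher in Scnn1b-Tg, with summed intensities of 542.9 to 577.7 in wild type and 570.4 to 581.1 in Scnn1b-Tg. Among them Ncr1, Gzmb, Klrb1c, Klre1, Klrk1 and Eomes had mean intensities under 25, near the lowest of the arrays. B cell markers, 9 measured with Cr2 under 25, summed to 412.4 to 579.2 and 485.1 to 605.5. Their part in the value of Clec2d was not tested.

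**Figure D3:**
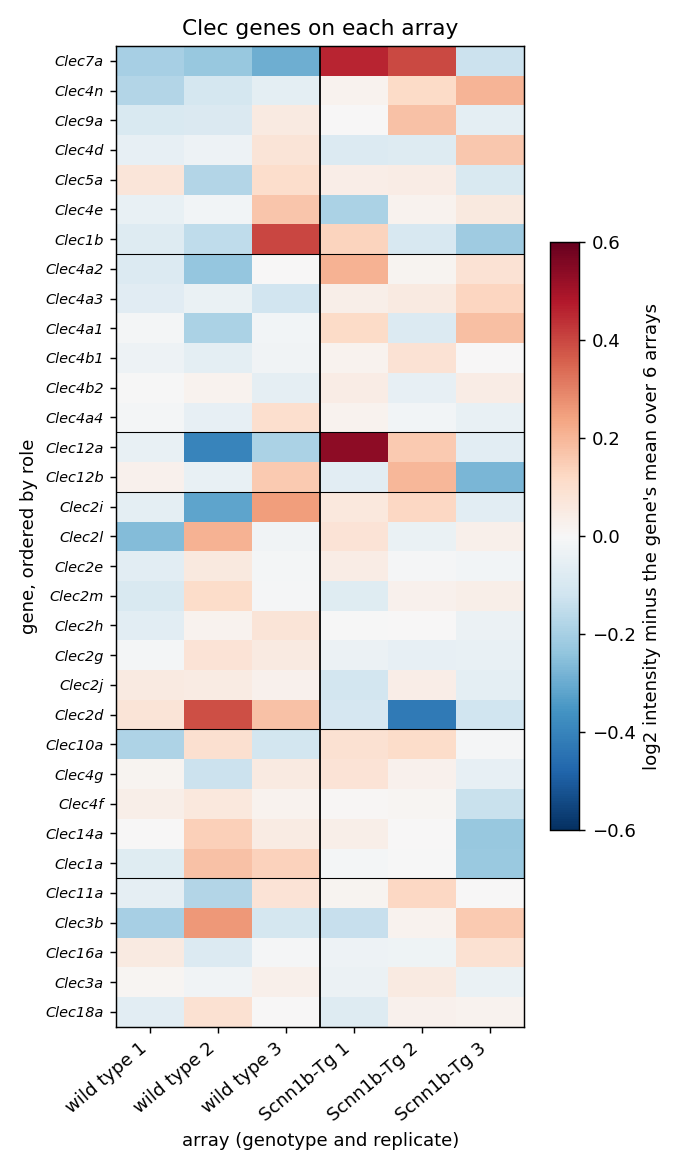
Log2 intensity of each of the 33 Clec genes (rows, by role) on each of the 6 arrays (columns), as the difference from the mean of the gene over all arrays, with red above and blue below. Clec7a and Clec12a are red on Scnn1b-Tg replicates 1 and 2 and pale blue on replicate 3 (-0.13 and -0.06), whereas Clec4n is reddest on replicate 3 (0.20).

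Of the lectins of endothelium and of sugar uptake, Clec1a and Clec14a are endothelial, the former a receptor for fungal melanin and the latter a partner of the matrix protein Mmrn2. Clec1a had intensities of 483.1, 573.2 and 559.4 in wild type and of 503.4, 507.0 and 435.9 in Scnn1b-Tg, and Clec14a had 449.8, 496.5 and 465.5 against 460.1, 450.0 and 383.5. In both, Scnn1b-Tg replicate 3 was the lowest array of all and the genotypes overlapped. The log2 fold changes were -0.16 ± 0.09 (SE) and -0.13 ± 0.08, and without Scnn1b-Tg replicate 3 they were -0.09 and -0.05. Of 17 endothelial markers 5 were higher in Scnn1b-Tg, with a median log2 fold change of -0.03 and summed intensities of 8726 to 9253 in wild type and of 8170 to 9126 in Scnn1b-Tg. On Scnn1b-Tg replicate 3 the mean deviation of these markers was 0.04, and the deviations of Clec1a and Clec14a were -0.22 and -0.23. The part of endothelial cells in the values of Clec1a and Clec14a was not tested. Mmrn2 gave 0.02 ± 0.07.

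Clec10a encodes MGL1, a galactose-binding receptor of macrophages and dendritic cells. It had a log2 fold change of 0.13 ± 0.08 (SE) with overlapping genotypes, at 28.61 to 34.76 in wild type and 32.32 to 35.07 in Scnn1b-Tg, and without wild type replicate 2 the value was 0.21. The gene of its relative MGL2, Mgl2, which is not named as a Clec gene, had 52.72, 68.37 and 53.79 in wild type and 118.6, 126.9 and 70.06 in Scnn1b-Tg (0.81 ± 0.23; adjusted p = 0.580 in limma). Without Scnn1b-Tg replicate 3 Mgl2 gave 1.08 (adjusted p = 0.0879), and without wild type replicate 2 as well 1.20 with an adjusted p of 0.0233, which passed the threshold. As for Clec7a, its replicates 1 and 2 of Scnn1b-Tg were far above wild type and replicate 3 just above. Clec4f, a lectin of Kupffer cells in liver, was separate at 28.85, 29.43 and 28.61 against 28.36, 28.41 and 25.69 (-0.08 ± 0.05, and -0.03 without Scnn1b-Tg replicate 3), and Clec4g, a lectin of liver sinusoids, gave 0.04 ± 0.06 with the probe set used and 0.04 ± 0.05 with the other.

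The secreted and intracellular members showed no separation. Clec3b, the plasminogen-binding tetranectin, gave 0.03 ± 0.13 (SE) and Clec11a, a secreted growth factor of bone and marrow, 0.10 ± 0.07 (0.03 without wild type replicate 2). Clec3a of cartilage and the secreted Clec18a gave -0.01 ± 0.05 and -0.02 ± 0.06. Clec16a, an intracellular protein of mitophagy, gave 0.02 ± 0.06 with intensities of 101.7, 92.54 and 97.58 in wild type and of 95.8, 96.31 and 104.3 in Scnn1b-Tg. Across these 5 genes the log2 fold changes ran from -0.02 to 0.10, and 0 had an unadjusted p under 0.05 in limma.

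The signalling partners of the activating receptors were described by a list of 32 genes, of which 30 were measured. In this list 26 genes had a positive log2 fold change, with a median of 0.10 beside 0.0052 over all genes, and 0 passed with adjustment over all genes in limma. An unadjusted p under 0.05 was reached by 10 genes, all of them higher in Scnn1b-Tg (33.3% of the list beside 3.96% of all genes). Plcg2, a phospholipase downstream of Syk, had 50.01, 53.81 and 54.04 in wild type and 69.76, 64.82 and 67.69 in Scnn1b-Tg (0.36 ± 0.05, SE; adjusted p = 0.151). Syk itself had 72.7, 64.76 and 70.47 against 93.32, 86.51 and 85.32 (0.35 ± 0.06; adjusted p = 0.225). Both were separate between genotypes, as was Malt1 of the Card9 complex (0.27 ± 0.05; adjusted p = 0.307). The adaptor chains Tyrobp (0.45 ± 0.11) and Fcer1g (0.19 ± 0.06) were separate and higher too, whereas Card9 (0.12 ± 0.08) and Bcl10 (0.04 ± 0.06) overlapped. These genes also serve many other immune receptors.

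A further list of 12 phosphatases, kinases and related genes was drawn up for the inhibitory receptors. All 10 measured genes had positive values (beside 53.2% of all genes), with a median of 0.14. Of these 2 had an unadjusted p under 0.05 in limma, or 20.0% beside 6.01% of all genes. These genes too serve other immune receptors, and the list does not measure inhibition. Inpp5d, the lipid phosphatase SHIP1, gave 0.20 ± 0.06 (SE; adjusted p = 0.559 in limma). The leukocyte phosphatase Ptprc gave 0.31 ± 0.13 and Cbl 0.23 ± 0.10 (0.44 and 0.13 without Scnn1b-Tg replicate 3). Ptpn6, the phosphatase SHP-1, gave 0.20 ± 0.10 (0.12 without wild type replicate 2). Among 49 measured genes of other proteins with a C-type lectin domain, 32 were higher in Scnn1b-Tg with a median of 0.03. At an unadjusted p under 0.05 in limma 6 were higher (12.2% beside 3.96% of all genes) and 1 lower (2.04% beside 2.05%). Besides Mgl2 the smallest p-values in limma belonged to Reg3g, a bactericidal lectin of epithelium (0.75 ± 0.19; adjusted p = 0.491), and Ncan, a brain proteoglycan (-0.16 ± 0.04). Without wild type replicate 2 Reg3g gave 0.59. The mannose receptor Mrc1 gave 0.16 ± 0.06 (0.10 without Scnn1b-Tg replicate 3) and Olr1, a receptor for oxidised lipoprotein, 0.29 ± 0.08. Among 17 listed ligands and partners 12 were higher and 0 had an unadjusted p under 0.05, with 0.13 ± 0.08 for Pdpn, the ligand of the Clec1b receptor.

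**Figure D4:**
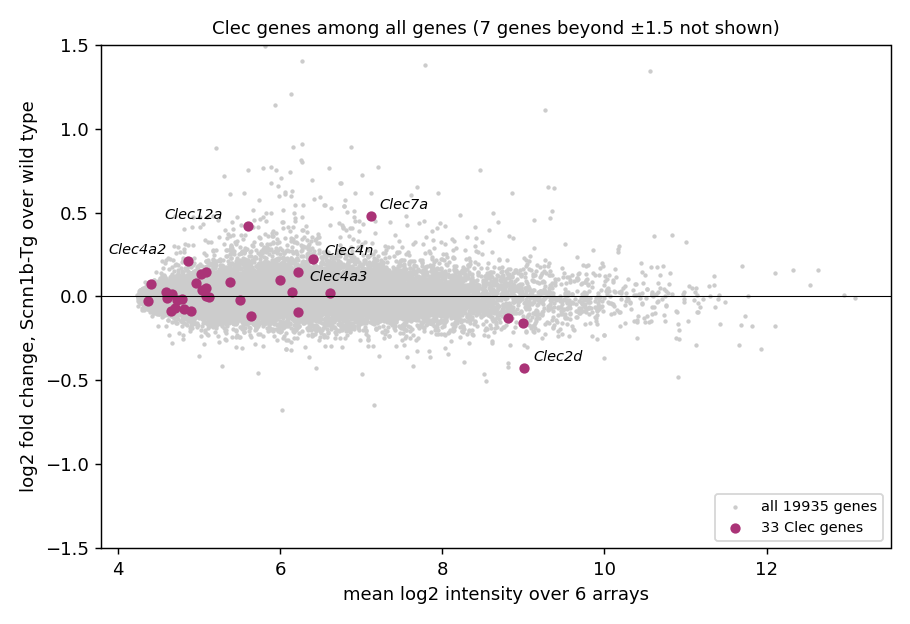
Log2 fold change (y axis, Scnn1b-Tg over wild type) against the mean log2 intensity over 6 arrays (x axis) of the 19935 genes in grey and of the 33 Clec genes in purple, with names for those with an unadjusted p under 0.05. The 7 genes beyond ±1.5, Scnn1b among them, are not shown. Clec7a (0.48), Clec12a (0.42) and Clec2d (-0.43) have the largest absolute values of the family, and those of the other Clec genes are 0.23 or less.

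Markers of the cells that could carry these receptors differed in summed intensity between genotypes. Of 13 alveolar macrophage markers 9 were higher, and their summed intensity was 3024 to 3280 in wild type and 4354 to 5016 in Scnn1b-Tg, led by Chil3 (1.34 ± 0.19, SE; adjusted p = 0.146 in limma). Without Chil3, a choice made after seeing the data, the sums were 2136 to 2284 and 2243 to 2409 and overlapped. Of 14 interstitial macrophage and monocyte markers 13 were higher, with sums of 2420 to 2909 and 2978 to 3139 and with C1qb at 0.54 ± 0.06. Of 18 conventional dendritic cell markers 16 were higher, with sums of 2114 to 2221 and 2293 to 2443. Among them Itgax, which is also in the alveolar macrophage list, gave 0.53 ± 0.08. The brightest marker was Apoe in the interstitial list (mean intensity 1049) and Cd24a in the dendritic cell list (760.9). The sums of these 2 lists without Apoe and Cd24a were not computed. In each of these lists the sums of the genotypes did not overlap, 0 markers had a mean intensity under 25, and 0 passed in limma. An unadjusted p under 0.05 in limma was reached by 5 (1 of them lower in Scnn1b-Tg), 8 and 7 members. These were 38.5%, 57.1% and 38.9% of the lists, beside 6.01% of all genes. Some of these markers passed in other settings: with the 6645 dimmest genes left out the adjusted p in limma was 0.00996 for Chil3, 0.021 for C1qb, 0.0225 for Itgam and 0.0337 for Itgax and for Ccl17.

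Neutrophil markers (10 of 16 higher) summed to 1285 to 1432 and 1865 to 2013. Without Retnlg and Lcn2, again chosen after seeing the data, the neutrophil sums were 664.7 to 723.2 and 703.9 to 773.3 and overlapped. Eosinophil markers (8 of 9 higher) summed to 355.4 to 383.8 and 626.9 to 1069, with Il5ra under 25. Alox15, the brightest of them, had mean intensities of 64.48 in wild type and 363.9 in Scnn1b-Tg, and Ccr3 had 47.44 and 135.4. The eosinophil sum without these genes was not computed. The adjusted p of Alox15 in limma was 0.109, and 0.0516 with the replicate block. It passed at 0.00317 once the 6645 dimmest genes were dropped, and at 0.00649 after 16 was taken from every intensity. Mesenchymal markers (11 of 14 higher) overlapped, at 9699 to 12570 and 11640 to 11950, and plasmacytoid dendritic cell markers (4 of 8 higher) overlapped at 919.7 to 944.9 and 899.4 to 944.4. The part of these cells in the values of the Clec genes was not tested.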

How the data were processed

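Trizol-extracted lung RNA of 3 wild-type and 3 Scnn1b-Tg samples was measured on Affymetrix arrays after whole-transcript labelling, per the labels' protocols. The authors deposited 1 RMA intensity per probe set and sample, per the submitters' processing notes, without a version of RMA in the sources used here. The values show a linear scale. Of 28815 probe sets 21780 had 1 symbol, and for each of 19935 genes the brightest was kept. Genotype was tested on log2 intensity with limma 3.58.1 (R 4.3.3; lmFit and eBayes, 6.99 degrees of freedom after moderation). Tests were two-sided, and p-values were adjusted over all genes by the method of Benjamini and Hochberg. The fit was tested on simulated data. Errors of intensities are SD of 3 arrays, and precision is limited by the number of arrays.

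The members and the 17 gene lists were chosen with earlier results of these data known. Of 295 list entries 269 were measured. Values of all arrays are given for members with an unadjusted p under 0.05, members without overlap and the 5 brightest, and up to 3 genes a list by smallest p. Genes of the lists named beyond that (the adaptors Tyrobp and Fcer1g, Card9, Bcl10, Ptpn6, Mrc1, Olr1, Xcr1, Batf3, Klrb1b, Pdpn, Mmrn2) were picked for their known role beside a member. Sftpc was named outside that rule as a lung marker, and markers with a mean intensity under 25 for being dim. The promoter motifs were chosen after the values were seen, and promoters were matched by Entrez identifier for 26 of 33 members. Protein sequences were not used here. No batch is given in the labels. The alternatives were other normalizations, probe set rules and variance models, array weights, subtraction of 16, the dimmest genes left out, the replicate number as a block, and arrays left out.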

Additional observations from a re-analysis of the deposited data

How the results depend on the processing

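Over 16 alternatives 0 Clec genes were called in limma, and 17 of 33 kept the sign of their log2 fold change in all of them, including all 6 with an unadjusted p under 0.05. The count of members with an unadjusted p under 0.05 in limma lay between 4 and 6 over single arrays left out. This was 12.1% to 18.2% of the family, beside 4.67% to 8.39% of all genes. Of these members 4 or 5 were among the 6 of the main fit. With the replicate block the count was 7, with Clec4a1 (21.2% beside 6.19% of all genes). Whether same-numbered arrays of the genotypes were paired is not stated in the labels. The correlations of their deviations were small (r 0.026, 0.028 and 0.039, beside -0.063 to 0.024 for differently numbered arrays). The numbers were not treated as pairs in the main fit. The count of called genes over the whole table was 3 with the replicate block, 39 without the 6645 dimmest genes, 36 when the variance followed an intensity trend robustly, 23 with 16 subtracted from every intensity, 6 without wild type replicate 2 and Scnn1b-Tg replicate 3, and 0 to 5 over single arrays left out, with 0 without wild type replicate 3 (where 1011 genes had an unadjusted p under 0.05) and 5 without Scnn1b-Tg replicate 3. Scnn1b gave 3.20 to 3.53 over single arrays left out, and 3.38 without wild type replicate 3 with an adjusted p of 0.0559. Members without overlap numbered 4 of the 14 left when the dimmest genes were dropped (28.6% beside 11.3% of all genes left). They numbered 8 to 13 over single arrays left out (13 without Scnn1b-Tg replicate 2), or 24.2% to 39.4% beside 18.2% to 24.3% of all genes. Without both outlying arrays there were 14 (42.4% beside 35.8% of all genes). After quantile normalization or median centring there were 7 (21.2% beside 11.3% and 11.8% of all genes). Fewer arrays overlap less. The cause of the other shifts was not tested.

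Signs that turned belonged to members near 0. Over single arrays left out the lowest and highest values were -0.22 and 0.021 for Clec12b, -0.017 and 0.055 for Clec16a, -0.058 and 0.018 for Clec18a, -0.22 and 0.058 for Clec1b, -0.016 and 0.046 for Clec2e, -0.061 and 0.0084 for Clec2h, -0.054 and 0.23 for Clec2i, and -0.069 and 0.17 for Clec2l. They were -0.056 and 0.044 for Clec2m, -0.043 and 0.0031 for Clec3a, -0.065 and 0.17 for Clec3b, -0.059 and 0.017 for Clec4a4, -0.078 and 0.044 for Clec4d, -0.12 and 0.0068 for Clec4e, -0.016 and 0.074 for Clec4g, and -0.093 and 0.049 for Clec5a. Other alternatives that turned a sign were quantile normalization for Clec16a (-0.0013), Clec3b (-0.018), Clec4d (-0.012), median centring for Clec16a (-0.0027), Clec2e (-0.012), Clec4d (-0.023), array weights for Clec16a (-0.0020), Clec4d (-0.054), and subtraction of 16 for Clec4d (-0.0012). Without both outlying arrays the sign turned for Clec16a (-0.052), Clec18a (0.0027), Clec2i (-0.0011), Clec2m (0.023), Clec4d (-0.093).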
